A study of Mus musculus with 12 samples.

Results

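The Wnt ligands, their receptors and their antagonists were examined in bulk RNA-seq of the mouse ventral spinal cord. The set was chosen by gene symbol alone. It holds every gene whose mouse symbol is *Wnt* or *Fzd* followed by a number (with a or b where a *Wnt* has one), *Dkk1* to *Dkk4*, *Sfrp1* to *Sfrp5*, *Wif1*, *Lrp5*, *Lrp6*, *Axin2* or *Lef1*. Of the 45777 genes listed, 42 met this rule, namely 19 Wnt ligands, 10 Frizzled receptors, 2 co-receptors, 9 secreted antagonists and 2 genes that act downstream.

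The 12 libraries came from E12.5 embryos, 3 for each pairing of level (brachial or lumbar) and genotype (*Isl2* +/-, here the heterozygote, or *Isl2* KO). Tissue was trimmed around the *Hb9::GFP* reporter, which marks motor neurons (MNs) through the *Hb9* promoter, so the samples are enriched for MNs and also hold progenitors, interneurons and vessels. The *Isl2* KO allele is a germline null in which exons were replaced by a neomycin cassette, so it affects every cell, and the heterozygote controls also carry it in single copy. All groups carry the reporter and were taken at one age.

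Wnt proteins are secreted, lipid-modified signals. They bind Frizzled receptors, and with the co-receptors Lrp5 and Lrp6 they stabilise β-catenin, which works with Tcf and Lef factors in the nucleus, while other Wnts act through Ror or Ryk and the planar polarity proteins. Secreted Frizzled-related proteins and Wif1 bind the ligands, and Dkk1 blocks the co-receptors. In the embryonic spinal cord this pathway is known for dorsal patterning and progenitor growth, for axon guidance, and for vessel growth into the tissue.

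All levels are TPM (a relative transcript abundance per gene length) after rescaling of each library by the median ratio of its genes, so levels can be set beside each other between genes. Differences are on the log2(TPM + 0.1) scale and were tested with limma over all genes with a mean of at least 0.5 TPM in the libraries compared, with Benjamini-Hochberg adjusted p-values. Aligned bases per library ranged from 4.48 to 6.64 gigabases, least in brachial KO replicate 3. *Isl2* itself was lower in all 3 KO than in all 3 heterozygote libraries at each level, with 4.47 to 7.28 TPM against 8.33 to 9.72 at the brachial and 6.53 to 8.24 against 8.43 to 10.3 at the lumbar level. The 8 MN genes of a marker list summed to 456 to 524 TPM in brachial and 197 to 334 in lumbar libraries. The list means were 494 and 263 TPM, and those of *Prph* alone 285 and 48.6 TPM, so the list gap was no larger than that of *Prph*. The 5 roof plate genes of another list summed to 4.75 to 8.21 TPM, with *Gdf7* near 0, and 6 dorsal progenitor genes summed to 14.02 to 30.5 TPM, so transcripts of dorsal progenitors were also present in tissue labelled ventral.

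Of the 42 members, 11 had a mean over all libraries of at least 10 TPM, 10 lay between 1 and 10 TPM, 11 between 0.1 and 1 TPM, and 10 below 0.1 TPM. In 28 members the value was above 0 in every library, and *Dkk4* was listed at 0 in all. The filter for testing was passed in at least 1 comparison by 26 members and in none by 16.

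**Figure D1:**
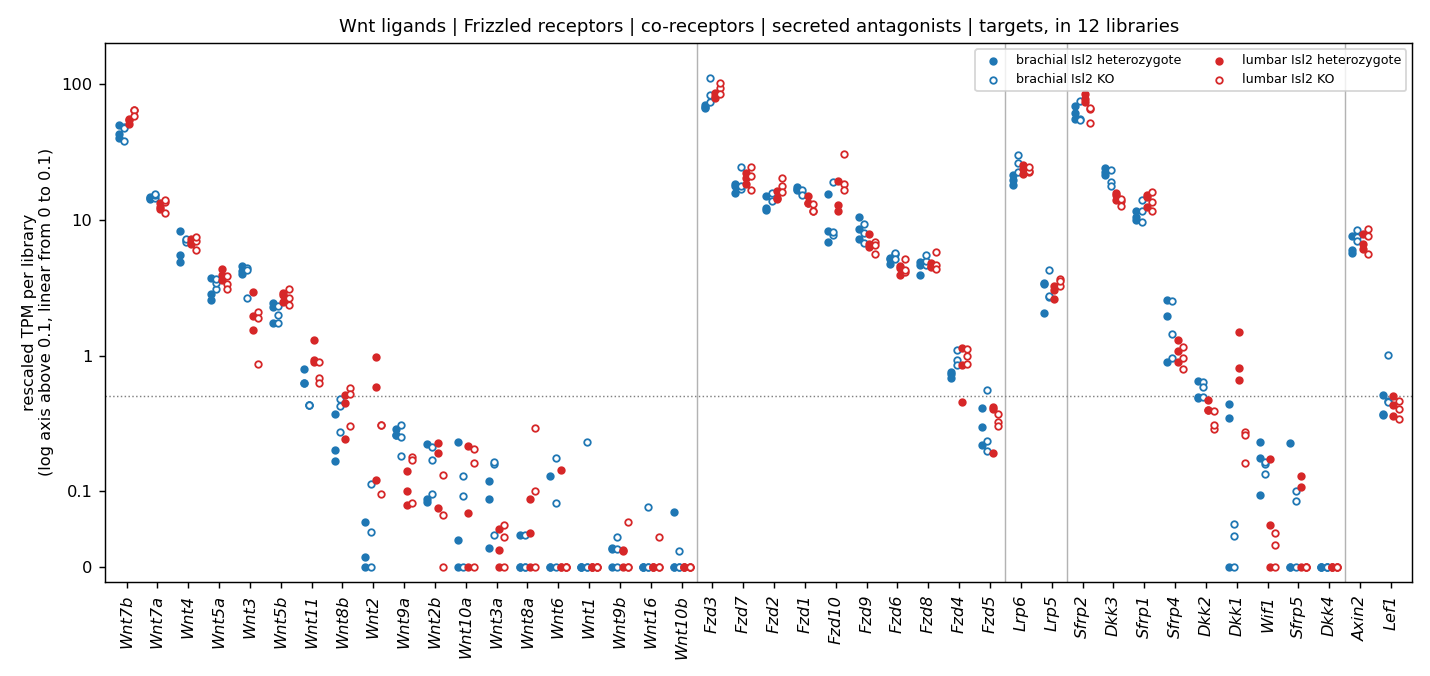
Rescaled TPM of the 42 members in the 12 libraries, on an axis that is logarithmic above 0.1 TPM and linear below it. Each point is 1 library, filled for heterozygote and open for KO, and the dotted line marks 0.5 TPM. *Wnt7b*, *Fzd3*, *Lrp6* and *Sfrp2* lead their classes, and 12 of the 19 ligands lie below a mean of 0.5 TPM.

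Among the ligands, 2 related genes made most of the RNA. *Wnt7b*, which with *Wnt7a* drives vessel growth into the neural tube, averaged 50.9 TPM, and *Wnt7a* averaged 13.7 TPM. Together they made 78.7% of the summed ligand TPM. Their group means, always given here in the order brachial heterozygote, brachial KO, lumbar heterozygote and lumbar KO with the SD of 3 libraries, were 44 ± 4.75, 44.5 ± 5.57, 53.2 ± 2.11 and 62.1 ± 3.39 TPM for *Wnt7b*, and 14.4 ± 0.20, 15 ± 0.57, 12.6 ± 0.69 and 12.9 ± 1.5 TPM for *Wnt7a*. *Wnt4*, a ligand of the floor plate that guides commissural axons, followed with 6.22 ± 1.82, 7.05 ± 0.21, 6.86 ± 0.29 and 6.77 ± 0.77 TPM. *Wnt3*, which MNs are known to make as a signal to sensory axons, stood at 4.23 ± 0.26, 3.76 ± 0.98, 2.14 ± 0.72 and 1.61 ± 0.65 TPM.

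The remaining tested ligands act mainly outside the β-catenin branch. *Wnt5a* stood at 3.04 ± 0.58, 3.38 ± 0.29, 3.94 ± 0.35 and 3.45 ± 0.38 TPM, and *Wnt5b* at 2.16 ± 0.36, 2.01 ± 0.30, 2.72 ± 0.22 and 2.70 ± 0.37 TPM. *Wnt11* stood at 0.68 ± 0.10, 0.43 ± 0.0022, 1.04 ± 0.23 and 0.73 ± 0.15 TPM, the highest group being lumbar heterozygote. The other 12 ligands had means over all libraries of at most 0.38 TPM, the highest being *Wnt8b*. *Wnt1* and *Wnt3a*, the ligands of the roof plate, were at 0 in 11 libraries and at no more than 0.17 TPM, respectively, and the remaining ligands at that low end were *Wnt2*, *Wnt9a*, *Wnt2b*, *Wnt10a*, *Wnt8a*, *Wnt6*, *Wnt9b*, *Wnt16* and *Wnt10b*.

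Each ligand is made active by the enzyme Porcupine, which attaches a lipid to a serine that all Wnts share. The stretch of 24 coding bases around that serine is shown for the 7 ligands that were high enough to test, to let the ligands be compared there. The serine codon is in capitals.
Wnt7b: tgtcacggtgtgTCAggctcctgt
Wnt7a: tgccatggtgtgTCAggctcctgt
Wnt4: tgtcacggggtgTCGggctcctgc
Wnt5a: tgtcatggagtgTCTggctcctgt
Wnt3: tgccacgggttgTCCggcagctgc
Wnt5b: tgtcacggagtcTCCgggtcctgc
Wnt11: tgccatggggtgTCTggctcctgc

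These were read from the GENCODE M21 transcripts on GRCm38, the assembly that mm10 names. The stretch was found once and in frame in the coding sequence of all 19 ligands, in 18 distinct forms, with a TCN codon for the serine in 17 and AGT in 2. In *Wnt7b* it lies in the coding part of exon 4 of 4, on the minus strand at chr15:85537812-85537835. In *Wnt7a* it lies in exon 4 of 4 on the minus strand at chr6:91366272-91366295, and 22 of its 24 bases match *Wnt7b*. In *Wnt3* it lies in exon 4 of 5 on the plus strand at chr11:103812314-103812337, with 17 of 24 bases matching *Wnt7b*. Over the whole coding sequence *Wnt7a* and *Wnt7b* were 74.7% identical, and their longest identical run was 23 bases, the longest stretch in which reads could not be told apart. The longest such run between *Fzd1* and *Fzd2* was 47 bases.

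Of the receptors, *Fzd3*, known for axon guidance and planar polarity, was the most abundant gene of all the members. Its mean of 82.6 TPM was 50.2% of the summed Frizzled TPM, and its group means were 67.7 ± 1.79, 88.7 ± 19.3, 81.5 ± 3.21 and 92.5 ± 8.64 TPM. *Fzd7* (19.4 TPM over all libraries), *Fzd2* (15.1 TPM), *Fzd1* (14.6 TPM) and *Fzd10* (14.5 TPM) formed a middle group whose ranges overlapped. *Fzd7* stood at 17.2 ± 1.28, 19.6 ± 4.31, 20.2 ± 1.83 and 20.5 ± 3.89 TPM, and *Fzd2* at 13 ± 1.71, 14.5 ± 1.0, 15 ± 1.13 and 18 ± 2.05 TPM. *Fzd1* stood at 16.8 ± 0.44, 15.8 ± 0.62, 13.7 ± 1.04 and 12 ± 0.78 TPM, and *Fzd10* at 10.1 ± 4.56, 11.6 ± 6.36, 14.5 ± 4.03 and 21.7 ± 7.65 TPM. *Fzd10* had the widest spread within its groups of these 4 receptors.

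Below them lay *Fzd9* (8.71 ± 1.59, 7.96 ± 1.27, 6.94 ± 0.81 and 6.32 ± 0.64 TPM), *Fzd6* (5.0 ± 0.29, 5.46 ± 0.29, 4.30 ± 0.35 and 4.49 ± 0.52 TPM) and *Fzd8* (4.48 ± 0.52, 5.04 ± 0.45, 4.61 ± 0.16 and 4.93 ± 0.75 TPM). *Fzd4*, the receptor of Norrin on vessels, stood at 0.72 ± 0.04, 0.95 ± 0.12, 0.82 ± 0.34 and 0.99 ± 0.12 TPM, and *Fzd5* averaged 0.33 TPM over all libraries. Of the co-receptors, *Lrp6* (19.6 ± 1.62, 26 ± 3.77, 23.4 ± 1.82 and 23.1 ± 1.10 TPM) exceeded *Lrp5* (2.96 ± 0.77, 3.22 ± 0.87, 2.96 ± 0.34 and 3.48 ± 0.21 TPM) in every library, by 5.68 to 9.45 times at the brachial and 6.07 to 8.38 times at the lumbar level.

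Among the antagonists, *Sfrp2*, *Dkk3* and *Sfrp1* together made 97.6% of the summed TPM. *Sfrp2*, which binds Wnts outside the cell, stood at 61.5 ± 6.78, 60.9 ± 11.4, 77.9 ± 5.07 and 60.9 ± 8.53 TPM, and its relative *Sfrp1* at 10.6 ± 0.83, 11.8 ± 2.18, 14.1 ± 1.49 and 13.7 ± 2.25 TPM. *Dkk3*, a divergent member of the Dkk family that does not block Lrp6 as Dkk1 does, stood at 22.5 ± 1.44, 19.8 ± 2.87, 14.9 ± 0.95 and 13.5 ± 0.74 TPM. The others were low, with *Sfrp4* at 1.81 ± 0.85, 1.64 ± 0.79, 1.09 ± 0.20 and 0.97 ± 0.18 TPM and *Dkk2* at 0.54 ± 0.09, 0.57 ± 0.07, 0.42 ± 0.04 and 0.33 ± 0.05 TPM. *Dkk1* averaged 0.38 TPM over all libraries, *Wif1* 0.11 TPM and *Sfrp5* 0.05 TPM. Downstream, *Axin2*, a common target of β-catenin signalling that also feeds back on it, stood at 6.44 ± 1.02, 7.56 ± 0.72, 6.81 ± 0.92 and 7.20 ± 1.5 TPM. *Lef1*, a β-catenin partner on DNA, stood at 0.41 ± 0.08, 0.64 ± 0.32, 0.43 ± 0.07 and 0.40 ± 0.06 TPM.

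The first comparison was lumbar against brachial cord, over 6 libraries each with genotype as a covariate. *Wnt7b* (log2 difference 0.38), *Wnt11* (0.58) and *Fzd2* (0.25) were higher in lumbar libraries, and *Wnt3* (−1.11), *Dkk3* (−0.57), *Fzd1* (−0.34) and *Wnt7a* (−0.21) were lower. Summed ligand TPM was 76.5 ± 5.43 (SD, n = 6) at the brachial and 87.7 ± 5.32 (SD, n = 6) at the lumbar level. By an adjusted p under 0.05 in limma, 7 of the 23 members tested passed, which is 30.4%, against 18.5% of all 16706 genes tested. Of all genes 8.91% passed as higher and 9.62% as lower in lumbar libraries. When 1 library was left out the count ran from 4, without brachial KO replicate 2 (against 12.6% of all genes) or lumbar heterozygote replicate 1 (21.3%), to 11, without brachial KO replicate 3 (19%). *Wnt7a*, *Wnt11* and *Fzd2* lost the call in 8, 7 and 9 of these 12 fits, whereas *Dkk3*, *Fzd1*, *Wnt3* and *Wnt7b* kept it in all 12. The 7 were 4 of 7 ligands, 2 of 9 receptors, 0 of 2 co-receptors, 1 of 4 antagonists and 0 of 1 downstream gene, and 13 members had an unadjusted p under 0.05, against 32.2% of all genes. The median log2 difference was 0.07 over the members tested and 0.01 over all genes. The libraries of both levels did not overlap in 4 members, against 8.31% of all genes.

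*Wnt7b* in brachial libraries had a lowest value of 38.1, a median of 45.0 and a highest of 49.2 TPM. In lumbar libraries these values were 50.7, 56.4 and 64.2 TPM. All 6 lumbar libraries thus lay above all 6 brachial ones, by a log2 difference of 0.38 ± 0.07 (SE, limma adjusted p = 0.00431). *Wnt7a* had a lowest value of 14.3, a median of 14.5 and a highest of 15.5 TPM in brachial, and of 11.2, 12.9 and 14.0 TPM in lumbar libraries. The levels did not overlap, with the lumbar libraries lower by a narrow margin (log2 difference −0.21 ± 0.06, limma adjusted p = 0.0351). The ratio of *Wnt7b* to *Wnt7a*, which no change of library scaling can move, was 2.51 to 3.45 in brachial and 4.06 to 5.21 in lumbar libraries.

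*Wnt3* had the greatest difference of the members tested. Its lowest, median and highest values were 2.63, 4.21 and 4.52 TPM in brachial and 0.86, 1.93 and 2.93 TPM in lumbar libraries. Brachial KO replicate 3 alone lay within the lumbar range, and the log2 difference was −1.11 ± 0.22 (SE, limma adjusted p = 0.00490). *Wnt11* ran from 0.43 through a median of 0.53 to 0.80 TPM in brachial and from 0.63 through 0.90 to 1.31 TPM in lumbar libraries. The ranges overlapped, and the log2 difference was 0.58 ± 0.17 (limma adjusted p = 0.0318) on a mean read coverage of 0.608 to 2.54 reads per base. *Wnt5b* (log2 difference 0.37), *Wnt5a* (0.20) and *Wnt4* (0.06) did not pass, with limma adjusted p-values of 0.0514, 0.262 and 0.791, and *Wnt4* turned to −0.08 with TPM as deposited.

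*Fzd1* ran from 15.2 through a median of 16.4 to 17.2 TPM in brachial and from 11.5 through 13 to 14.9 TPM in lumbar libraries. Every lumbar library was below every brachial one, with a log2 difference of −0.34 ± 0.06 (SE, limma adjusted p = 0.00200). *Fzd2*, its close relative, ran the other way, from 11.8 through 14 to 15.6 TPM in brachial and from 14.3 through 16.2 to 20.1 TPM in lumbar libraries. These ranges overlapped (log2 difference 0.25 ± 0.08, limma adjusted p = 0.0399). The ratio of *Fzd2* to *Fzd1* was 0.70 to 1.03 in brachial and 1.09 to 1.74 in lumbar libraries, with no overlap.

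*Dkk3* had the smallest p of the members. Its lowest, median and highest values were 17.6, 21.7 and 24 TPM in brachial and 12.6, 13.9 and 15.6 TPM in lumbar libraries. The levels did not overlap, and the log2 difference was −0.57 ± 0.07 (SE, limma adjusted p = 0.000403). *Sfrp4*, the third in size of difference, ran from 0.90 through 1.70 to 2.58 TPM in brachial and from 0.80 through 1.02 to 1.3 TPM in lumbar libraries. The ranges overlapped, and it did not pass (log2 difference −0.60 ± 0.26, limma adjusted p = 0.134), nor did *Sfrp1* (0.32, adjusted p = 0.0545) or *Sfrp2* (0.17, adjusted p = 0.273). For *Axin2*, with a limma adjusted p of 0.992, the 95% interval of its log2 difference ran from −0.26 to 0.25.

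**Figure D2:**
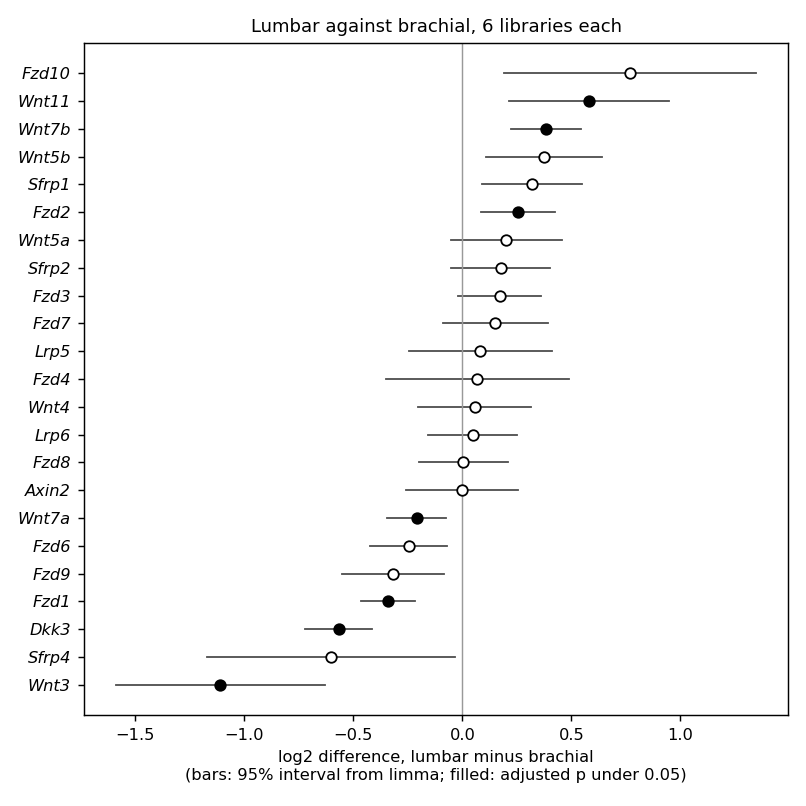
Log2 difference of lumbar minus brachial libraries for the 23 members tested, with 95% intervals from limma. Filled points have an adjusted p under 0.05. Differences run from −1.11 for *Wnt3* to 0.77 for *Fzd10*.

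*Fzd10*, a receptor of the dorsal neural tube, had the second largest difference but did not pass (log2 difference 0.77 ± 0.27, limma adjusted p = 0.0631). It passed without brachial heterozygote replicate 1 (0.94, limma adjusted p = 0.0224) or brachial KO replicate 1 (0.93, limma adjusted p = 0.0282). Brachial libraries held 15.3, 8.19 and 6.83 TPM in heterozygote and 18.9, 7.70 and 8.17 TPM in KO replicates 1, 2 and 3. Lumbar libraries held 11.6, 19.1 and 12.8 TPM in heterozygote and 18.2, 16.4 and 30.5 TPM in KO replicates. The levels overlapped, and the highest library of all was lumbar KO replicate 3. The summed TPM of 6 dorsal progenitor genes (*Pax3*, *Pax7*, *Olig3*, *Atoh1*, *Gsx1* and *Gsx2*) was 20.1, 16.4 and 14.02 in brachial heterozygote and 25.9, 16.1 and 15.4 in brachial KO libraries. In the same order of replicates it was 19.9, 24.7 and 18.3 in lumbar heterozygote and 24.4, 22.3 and 30.5 in lumbar KO libraries. In each of the 4 groups the library highest in *Fzd10* was also the highest for this list, but none of the 5 genes of the list that were tested passed between levels. These 4 libraries were also the highest of their groups for the summed dorsal interneuron genes, so the match is not particular to dorsal progenitors. Of 8 dorsal interneuron genes, which summed to 49.3 ± 10.1 TPM in lumbar and 54.3 ± 10.3 TPM in brachial libraries (SD, n = 6), *Lhx9* passed as higher (4.38 against 2.19 TPM) and *Barhl1* (2.85 against 5.17 TPM) and *Barhl2* (6.01 against 10.96 TPM) as lower in lumbar libraries. The part of dorsal tissue in the *Fzd10* difference was not tested.

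**Figure D3:**
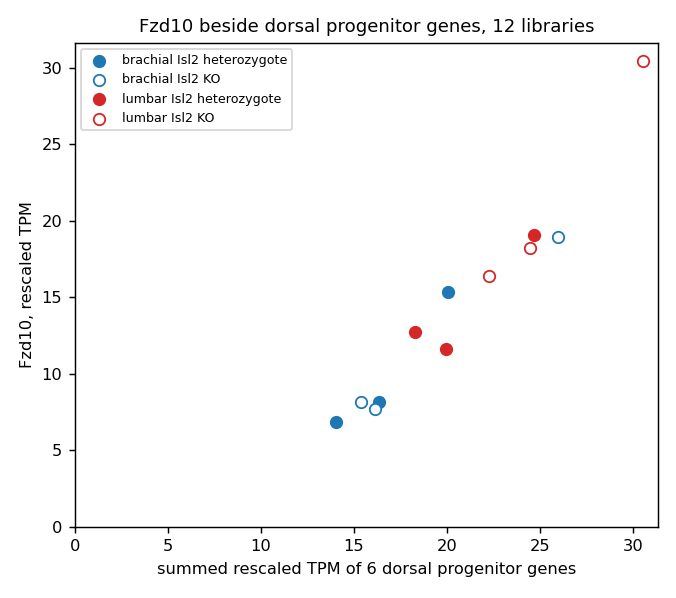
*Fzd10* (vertical axis, rescaled TPM) beside the summed rescaled TPM of 6 dorsal progenitor genes (horizontal axis) in each of the 12 libraries. The point at the upper right is lumbar KO replicate 3, with 30.5 TPM of *Fzd10* and 30.5 TPM of the list.

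Other cell types also differed by level. Of 8 neural progenitor genes 5 were higher (such as *Mki67*, 30.2 against 18.5 TPM) and 1 lower in lumbar libraries. The list summed to 1893 to 2301 TPM in lumbar and 1891 to 2768 TPM in brachial libraries. Most of this sum was *Fabp7*, the gene that was lower (mean 1479.8 against 1951.5 TPM), so the sum does not describe the other genes. Of 8 MN genes 2 were lower in lumbar libraries. Lower there were also 4 of 5 tested mesenchyme genes (list sums 46.7 to 68.4 against 67.7 to 93.3 TPM), 4 of 7 endothelium genes (71.6 to 86.5 against 80.8 to 112 TPM) and 4 of 6 microglia genes (9.81 to 21.2 against 20.9 to 32.0 TPM). In bulk samples fewer cells of a type and less RNA per cell cannot be told apart, and the part of these cell types in the differences above was not tested.

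Below the filter, *Dkk2* was 0.49 to 0.65 TPM in brachial and 0.29 to 0.47 TPM in lumbar libraries, and *Wnt9a* 0.18 to 0.31 against 0.08 to 0.18 TPM, in both cases with no overlap. *Wnt2* ran from 0 to 0.11 TPM in brachial and from 0.10 to 0.97 TPM in lumbar libraries, which overlapped. These 3 were singled out after their values were seen. In a fit of all genes with no filter *Wnt2* and *Wnt9a* passed between levels and *Dkk2* did not.

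Of 73 further genes of the pathway 59 were tested, and 10 of them (16.9%) passed between levels, 6 higher and 4 lower in lumbar libraries, which is below the 18.5% of all genes. Higher were *Lgr4*, a receptor of R-spondins (45.7 against 34.6 TPM), *Ror2*, a receptor of Wnt5a (3.83 against 2.07), *Ndp*, which encodes Norrin (6.67 against 5.07), and *Ccnd1*, a cell cycle gene (72.3 against 45.0). Lower were the R-spondin gene *Rspo3* (1.01 against 2.62 TPM), *Myc* (2.96 against 5.95), *Nkd2*, an inhibitor at Dishevelled (2.70 against 3.86), and *Tspan12*, a partner of Fzd4 (39.9 against 46.0). The limma adjusted p of these 8 ran from 0.00255 for *Lgr4* to 0.0283 for *Tspan12*. Among the targets, *Ccnd1* was higher and *Myc* and *Nkd2* lower, while *Axin2* did not pass. None of 4 tested genes for Wnt secretion and none of 14 for the destruction complex and Dishevelled passed. For example, *Wls*, the carrier of Wnts to the cell surface, was at 25.5 TPM at both levels.

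The next question was whether loss of *Isl2* altered these genes at the brachial level. A gene was called here at a log2 fold change beyond 0.5 in size with an unadjusted p under 0.05. The study set this threshold for lower genes, in another tool, and it was applied here in both directions to limma values. None of the 25 members tested was called, against 3.08% of all 16775 genes. By an unadjusted p alone 2 members passed, against 13.9% of all genes, and by a limma adjusted p under 0.05 none did, against 1 gene (0.00596%) of all. Genotypes did not overlap in 4 members, against 20.1% of all genes. The median log2 fold change was 0.12 over the members tested and −0.01 over all genes. When 1 library was left out the median of the members ran from 0.034, without KO replicate 3, to 0.16, without KO replicate 1. With TPM as deposited it was 0.30 over the members and 0.16 over all genes.

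*Lrp6* was at 19.5, 21.3 and 18.1 TPM in heterozygote and at 22.3, 25.9 and 29.8 TPM in KO libraries. All KO libraries were above the heterozygote ones, by a log2 fold change of 0.40 ± 0.12 (SE), with an unadjusted limma p of 0.0122 and an adjusted p of 0.357. *Fzd3* was at 69.6, 67.3 and 66.1 TPM in heterozygote and at 73.9, 81.8 and 110.5 TPM in KO libraries. KO was again higher without overlap (log2 fold change 0.37 ± 0.14, unadjusted limma p of 0.0310, adjusted p of 0.357), and the greatest value of both genes was in replicate 3. Without brachial KO replicate 3, the library of least depth, the log2 fold changes were 0.29 for *Lrp6* and 0.20 for *Fzd3*. *Fzd3* is named for its p, after its values were seen. Among markers of cell types *Nkx6-1* of the ventral progenitor list (3.45 to 5.85 against 2.39 to 2.88 TPM) and *Gata3* of the ventral interneuron list (2.0 to 3.04 against 1.21 to 1.54 TPM) were called higher in brachial KO. The MN list summed to 456.3 to 491.3 TPM in KO and 508.9 to 523.7 TPM in heterozygote libraries, with no overlap. The list means were 470.6 and 517.8 TPM, and the means of *Prph* alone were 260.4 and 310.1 TPM. No gene of this list was called. In *Isl1*, *Chat* and *Prph* every KO library was below every heterozygote one, and in *Foxp1* every KO library was above. The blood list was highest in brachial KO replicate 3, at 5928 TPM against 1956 to 3524 TPM in heterozygote and 2786 and 3176 TPM in the other KO libraries. The part of these cells in the brachial differences was not tested.

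*Wnt11* had the largest fold change. It passed the filter through its heterozygote group, as *Lef1* did through its KO group, so the fold change of neither is independent of the filter. It was at 0.63, 0.80 and 0.62 TPM in heterozygote and at 0.43, 0.44 and 0.44 TPM in KO libraries. KO was lower without overlap, but the log2 fold change of −0.54 ± 0.30 had a limma p of 0.109 and an adjusted p of 0.401. *Lef1* was at 0.51, 0.37 and 0.36 TPM in heterozygote and at 0.46, 0.45 and 1.01 TPM in KO libraries. The genotypes overlapped, and its log2 fold change of 0.46 ± 0.39 (limma adjusted p = 0.564) was the difference with a single high KO library included. Of the other pathway genes 2 of 59 (3.39%) were called, both higher in KO, *Prickle2* of the planar polarity group (10.3 ± 1.81 against 7.04 ± 0.88 TPM, SD, n = 3) and the kinase gene *Gsk3b* (55.0 ± 21.2 against 32.4 ± 5.70 TPM). Both had a limma adjusted p of 0.357. Neither was called without brachial heterozygote replicate 3 or without brachial KO replicate 3.

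At the lumbar level *Dkk1*, which encodes the secreted blocker of Lrp5 and Lrp6, was the member called, and it had passed the filter only through the heterozygote group, where it was high. It was at 0.82, 0.66 and 1.49 TPM in the heterozygote and at 0.16, 0.27 and 0.26 TPM in the KO libraries. Every KO library was lower than every heterozygote one, with means of 0.99 ± 0.44 and 0.23 ± 0.06 TPM (SD, n = 3) and a log2 fold change of −1.66 ± 0.40 (SE), with an unadjusted limma p of 0.00326. Adjusted over all genes the limma p was 0.964, so the difference did not pass there. An exact permutation test of 3 against 3 libraries cannot go below a two-sided p of 0.1. At the brachial level, where *Dkk1* was below the filter and has no test, the heterozygote libraries held 0.44, 0.35 and 0 TPM and the KO libraries 0.06, 0 and 0.04 TPM. These overlapped, with a heterozygote and a KO library at 0.

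The *Dkk1* values are low. Mean read coverage was 2.20 to 4.47 reads per base in lumbar heterozygote and 0.428 to 0.861 in lumbar KO libraries. Without lumbar heterozygote replicate 3 *Dkk1* fell under the filter and had no test. In a fit of all genes with no filter its log2 fold change was again −1.66, with an unadjusted limma p of 0.00373 and an adjusted p of 0.924. Leaving out any of the other lumbar libraries gave log2 fold changes of −1.88 to −1.50. With 1 TPM added in place of 0.1 the log2 fold change was −0.67. Genes of other cell types also differed between the lumbar genotypes. Of the 8 MN genes *Prph* was called lower in KO (31.1 to 40.6 against 44.2 to 76.7 TPM), and of 6 blood genes *Hba-x* was called higher (119.7 to 235.6 against 82.3 to 147.4 TPM). No neural progenitor gene was called, but in 5 of 8 (*Sox2*, *Hes5*, *Mki67*, *Top2a* and *Notch1*) every KO library was above every heterozygote one, such as *Top2a* (119.5 to 163.7 against 85.8 to 118.4 TPM) and *Sox2* (101.2 to 106.9 against 84.7 to 96.3 TPM). In 3 of 8 MN genes, *Prph*, *Chat* (5.10 to 9.01 against 9.11 to 10.54 TPM) and *Slc5a7* (10.54 to 12.7 against 13.2 to 16.5 TPM), every KO library was below. By list sums, the MN list (196.7 to 271.9 against 255.1 to 334.4 TPM) and the mesenchyme list (46.7 to 68.4 against 60 to 67.4 TPM) overlapped, and the roof plate list (5.81 to 8.21 against 4.75 to 5.27 TPM) did not. The part of these cell types in the lumbar genotype differences was not tested.

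**Figure D4:**
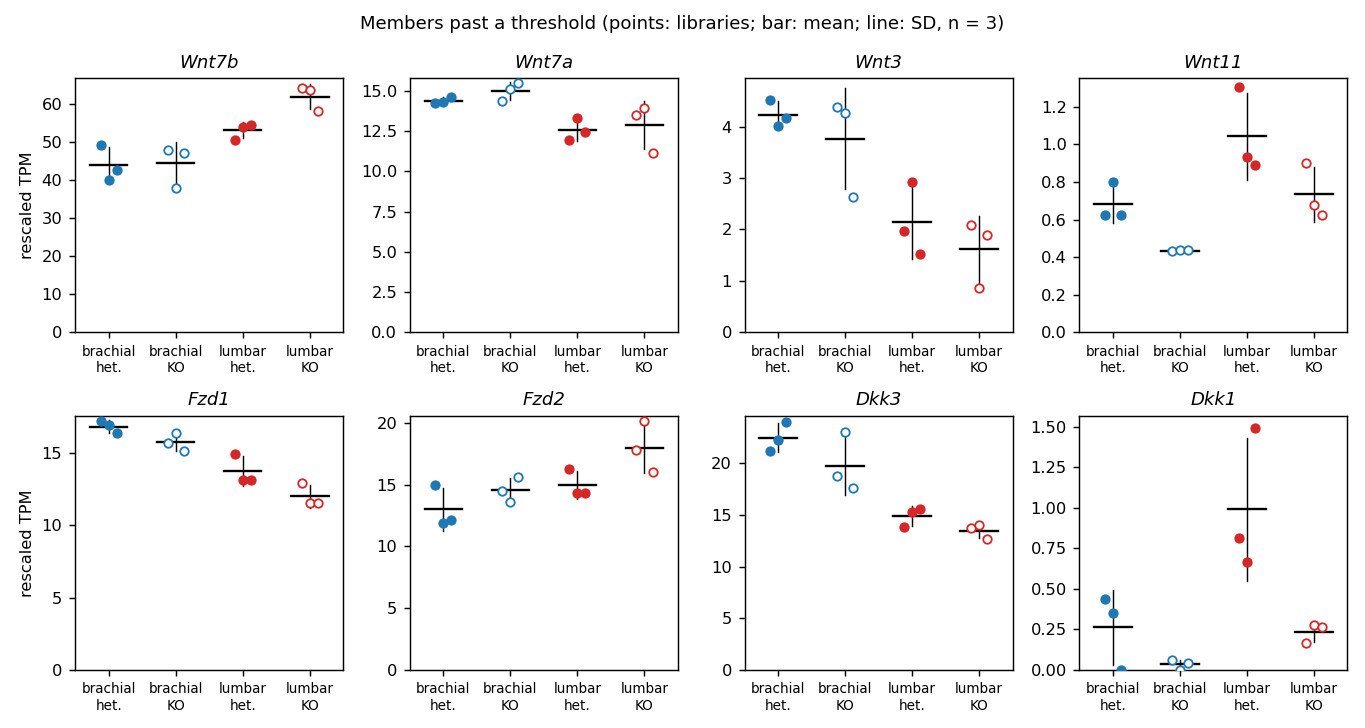
Rescaled TPM in each library for the 7 members that passed between levels and for *Dkk1*, called between genotypes at the lumbar level. Points are libraries, bars are group means and lines are SD (n = 3). *Dkk1* is 0.66 to 1.49 TPM in lumbar heterozygote and 0.16 to 0.27 TPM in lumbar KO libraries.

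The sequence before the *Dkk1* start site is shown because *Dkk1* is a known target of β-catenin signalling. The capitals mark the core that Tcf and Lef factors bind, CTTTGA or its reverse complement TCAAAG.
Dkk1: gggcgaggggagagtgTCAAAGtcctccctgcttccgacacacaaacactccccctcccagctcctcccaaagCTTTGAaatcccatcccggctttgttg

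These 100 bases, from RefSeq on GRCm38.p6, lie upstream of *Dkk1* on the minus strand at chr19:30549587-30549686, outside its exons. The matches begin 174 and 117 bases before the start site. The window of 300 bases around the start, searched on both strands, was held for 28 members in 34 windows, and 5 windows (14.7%), of *Dkk1*, *Fzd1*, *Lef1*, *Wnt11* and *Wnt5b*, had a match, against 16% of all 32851 windows. More than 1 match, as for *Dkk1* and *Lef1*, was found in 1.73% of all windows. A match of 6 letters is a description of the sequence and not evidence of binding.

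Over all members, 1 of 24 was called at the lumbar level (4.17%), *Dkk1*, whose entry depended on its high group, against 1.77% of all 16629 genes in either direction and 0.794% as lower, and 0 by a limma adjusted p under 0.05, against 0% of all genes. By an unadjusted p under 0.05, 4 members passed, against 4.86% of all genes, and genotypes did not overlap in 4 members, against 9.94% of all genes. The median log2 fold change was −0.02 over the members tested and −0.01 over all genes. None of the 59 further pathway genes was called, and 2 had an unadjusted p under 0.05.

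*Sfrp2*, the most abundant antagonist, was at 83.3, 73.3 and 77 TPM in heterozygote and at 65.2, 66.5 and 51.1 TPM in KO libraries. KO was lower without overlap (log2 fold change −0.36 ± 0.11, unadjusted limma p of 0.0118, adjusted p of 0.999). At the brachial level its log2 fold change was −0.02, with a 95% interval of −0.35 to 0.30. *Wnt7b* was at 50.7, 54.1 and 54.7 TPM in heterozygote and at 64.2, 63.9 and 58.2 TPM in KO libraries. KO was higher without overlap (log2 fold change 0.22 ± 0.07, unadjusted limma p of 0.0149, adjusted p of 0.999). *Fzd2*, with a log2 fold change of 0.26 (unadjusted limma p of 0.0458, adjusted p of 0.999), overlapped between genotypes. *Sfrp2*, *Wnt7b* and *Fzd2* are named for their p, after their values were seen.

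*Fzd10* (log2 fold change 0.56 ± 0.26) and *Wnt11* (−0.45 ± 0.29) had the largest fold changes after *Dkk1*, and neither passed, with limma p-values of 0.0643 and 0.155 and adjusted p-values of 0.999. Their lumbar genotypes overlapped, and the *Wnt11* libraries held 1.31, 0.93 and 0.89 TPM in heterozygote against 0.90, 0.68 and 0.63 TPM in KO. In every KO library at both levels *Wnt11* was below the heterozygote mean. This was seen after its values were known and was not tested. Its brachial part is not independent of the filter. Without lumbar heterozygote replicate 2 or lumbar KO replicate 2, *Fzd10* passed the threshold, and the count of members called was 2. The shares of all genes in these fits were 2.03% and 2.71%. Without lumbar KO replicate 3, its highest library, the log2 fold change of *Fzd10* was 0.29, and without lumbar heterozygote replicate 1 that of *Wnt11* was −0.29.

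**Figure D5:**
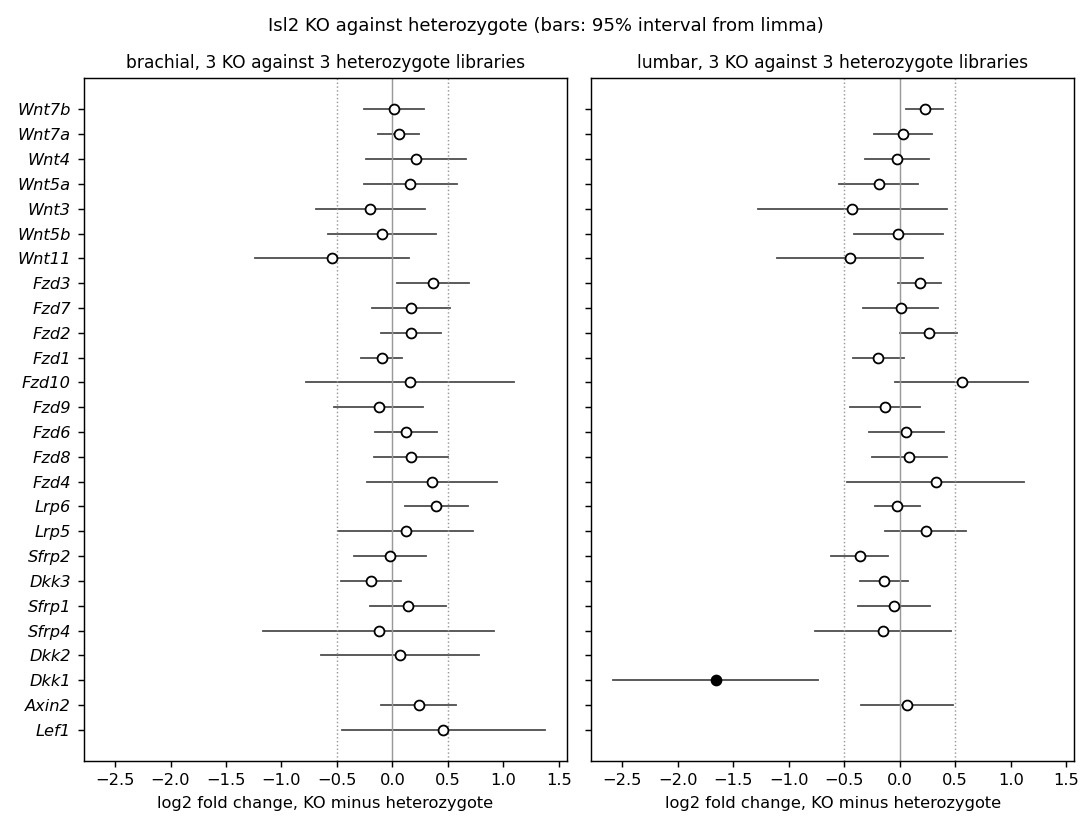
Log2 fold change of *Isl2* KO minus heterozygote libraries at the brachial (left) and lumbar (right) level, with 95% intervals from limma. Dotted lines mark 0.5 in each direction and the filled point is the member called, *Dkk1*. *Lef1* and *Dkk2* were tested at the brachial level only, and *Dkk1* at the lumbar level only.

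Whether the effect of *Isl2* loss differed between levels was tested as an interaction in all 12 libraries. None of 23 members passed a limma adjusted p under 0.05, against 0% of all 16706 genes. At an unadjusted p under 0.05 it was 1 member, against 4.42% of all genes. This was *Lrp6*, with a difference of the log2 fold changes (lumbar minus brachial) of −0.42 ± 0.15 (SE), an unadjusted limma p of 0.0182 and an adjusted p of 0.812. At the lumbar level *Lrp6* held 25.3, 23.4 and 21.6 TPM in heterozygote and 22.2, 22.7 and 24.3 TPM in KO libraries, which overlapped, unlike at the brachial level. *Fzd10* (0.40 ± 0.54) and *Wnt5a* (−0.35 ± 0.22) followed in size, with limma adjusted p-values of 0.865 and 0.812. When 1 library was left out the *Fzd10* value ran from 0.06, without brachial heterozygote replicate 1, to 0.82, without brachial KO replicate 1. *Wnt5a* held 2.86, 3.69 and 2.57 TPM in brachial heterozygote, 3.08, 3.40 and 3.66 TPM in brachial KO, 3.92, 4.31 and 3.60 TPM in lumbar heterozygote and 3.37, 3.11 and 3.86 TPM in lumbar KO libraries, and the genotypes overlapped at both levels. *Dkk1* was below the filter in this fit, so whether its lower level in KO differed between levels was not tested.

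For *Axin2*, a common readout of β-catenin signalling among the members, the 95% interval of the log2 fold change was −0.10 to 0.57 at the brachial and −0.35 to 0.48 at the lumbar level. Its libraries held 7.60, 6.02 and 5.70 TPM in brachial heterozygote and 8.36, 7.39 and 6.95 TPM in brachial KO. At the lumbar level they held 7.82, 6.56 and 6.03 TPM in heterozygote and 8.50, 5.56 and 7.55 TPM in KO. The genotypes overlapped at both levels.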

How the data were processed

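RNA-seq of 12 libraries was grouped by the level, genotype and replicate number in their labels. Per the labels and methods, the authors used FastQC 0.11.7 and Trimmomatic 0.38, aligned reads to mm10 by HISAT2 2.1.0 and Bowtie2 2.3.4.1, and estimated abundances per library by StringTie 2.1.3b. The deposited TPM values come from that run. The deposited FPKM values, a constant multiple of TPM in each library, and the deposited coverage values (mean reads per base) served only for depth. No counts are used here, so counting error is unknown.

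Symbols came from RefSeq GRCm38.p6 for 45679 of 45777 identifiers. TPM was divided by median-of-ratios size factors (0.893 to 1.25, over 19305 genes), 0.1 was added, and limma 3.58.1 (R 4.3.3, eBayes with a trend) was run on the log2 scale after it had been tested on simulated data.

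The members, lists, tests and alternatives were chosen with earlier results of these data known. Library values (lowest, median and highest for groups of 6) are given for members called and for the 3 with the largest difference in each comparison. Further pathway genes are named up to 4 per direction by p. Lists of cell types not described above are not reported here. A gene of the dorsal progenitor list is not reported here, and the list's sums leave it out. The methods name 3 animals per genotype. By sex-linked genes, 1 of 3 brachial and 2 of 3 lumbar heterozygote libraries were female, so the heterozygote libraries of both levels do not share the same 3 embryos. Of the KO libraries 1 of 3 was female at each level, so these may share embryos. The main fits across levels treat all libraries as independent.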

Additional observations from a re-analysis of the deposited data

How the results depend on the processing

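Between levels, *Dkk3*, *Fzd1*, *Wnt3* and *Wnt7b* passed without any 1 of the 12 libraries, while *Wnt7a*, *Wnt11* and *Fzd2* lost the call in 8, 7 and 9 of these 12 fits, with limma adjusted p-values up to 0.0745, 0.0679 and 0.0967. The count of members was 4 to 11 over these fits, 4 without brachial KO replicate 2 or lumbar heterozygote replicate 1 and 11 without brachial KO replicate 3. In the heterozygote libraries alone it was 1, *Dkk3*, against 2.93% of all genes. In the KO libraries alone it was 0, against 1.77% of all genes. Fewer samples enter these 2 fits. Further pathway genes numbered 1 in each of these and 7 to 13 over the fits without 1 library. With TPM as deposited the median of all genes shifted to −0.13 between levels, 647 of 2853 calls were higher in lumbar in place of 1488 of 3095, 10 of 23 members in place of 15 had a difference above 0, and *Wnt7b* was the member called higher. Without a filter 10 of 41 members were called, against 8.81% of all genes, with *Dkk1*, *Wif1*, *Wnt2* and *Wnt9a* added and *Fzd2* lost (limma adjusted p = 0.0637). At the brachial level the median of all genes shifted to 0.16 with TPM as deposited, and 2 members (*Fzd3* and *Lrp6*) and 8 further pathway genes were called, against 7.44% of all genes. Without the eBayes trend 1 member (*Wnt11*, which passed the filter only through its heterozygote group) was called there, against 2.96% of all genes. Without 1 library it was 0 to 1 (*Lrp6* without KO replicate 1, against 8.23% of all genes). Further pathway genes there numbered 1 with 1 TPM added, with quantile normalization, without the trend or with a replicate block, and 0 to 6 without 1 library (0 without heterozygote replicate 3 or KO replicate 3, 6 without KO replicate 1). At the lumbar level the count of members was 0 with a mean of at least 1 TPM or all 12 libraries in one fit, both of which left *Dkk1* untested, and 0 to 2 without 1 library, with 0 to 3 further pathway genes. Same-numbered libraries did not deviate together in every pair (correlations of −0.21 to 0.34 over 16706 genes), so the numbers were not used as pairs. A replicate block gave 5 members between levels, 0 between brachial genotypes and 1 between lumbar genotypes. The shares of all genes with this block were 13.9%, 3.14% and 1.86%. No member that was called reversed its direction in these fits. Small differences did. Between levels *Wnt4* was −0.082 with TPM as deposited, −0.064 in KO libraries alone and −0.025 to 0.14 without 1 library, and *Axin2* was 0.016 with quantile normalization, 0.082 in heterozygote libraries alone and −0.058 to 0.084 without 1 library. Between brachial genotypes *Sfrp2* was 0.15 with TPM as deposited, 0.028 with quantile normalization and −0.17 to 0.057 without 1 library, and between lumbar genotypes *Axin2* was −0.061 to 0.24 without 1 library. Coverage was low for *Dkk1*, *Dkk2*, *Wnt11* and *Lef1*, and 16 members were below the filter in every comparison.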
